A study of Homo sapiens with 6 samples.

Results

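The genes described here are 47 genes of DNA replication and of the passage from G1 into S phase, chosen by name from a table of 27605 genes, and all 47 were listed and tested. They cover the proteins that license replication origins, the replication fork, the supply of nucleotides, the E2F transcription factors and the G1 cyclins with their kinases. The data are 6 RNA libraries labelled HepG2, a cell line from a human liver tumor, though hepatocyte markers given below go against that label. In 3 of them the cells carried a control hairpin (shNC), and in the other 3 a hairpin against ARHGEF2 (shARHGEF2), which encodes a guanine nucleotide exchange factor for the small GTPase RHOA. In the study's methods the hairpin came by lentivirus into a stable line, so each group stands for cells of a single line. Neither a shared hairpin sequence nor separate cultures are stated for the 3 shARHGEF2 libraries, and p-values therefore measure only the spread between these libraries, which may be technical.

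In G1 phase the origin recognition complex, CDC6 and CDT1 load the MCM2 to MCM7 helicase onto replication origins, a step called licensing, and geminin (GMNN) binds CDT1 and blocks a second loading. Cyclin D with CDK4 or CDK6, and then cyclin E with CDK2, release the E2F factors from the retinoblastoma protein, and E2F turns on many of the genes described here. At S phase CDC45 and the GINS complex activate the helicase, and polymerases copy the DNA on the sliding clamp PCNA. As the RNA came from whole cultures, fewer cells in S phase and less RNA per cell cannot be told apart.

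The promoters were searched for the E2F binding motif. The genes were chosen by name, partly as E2F and G1/S genes, so a high share with this motif goes with the choice and is only a description. The RefSeq promoter windows (GRCh38.p14, 250 bases before to 50 bases after the transcription start) matched 39 of the 47 genes by symbol. Each window was searched on both strands for TTTCCCGC, TTTCGCGC, TTTGCCGC and TTTGGCGC, spellings that can overlap one another on opposite strands. At least 1 spelling was found for 20 of the 39 genes (51.3%), against 3.99% of the 27305 genes with a window. The CCAAT box, searched on both strands as well, was found for 61.5% of the 39 genes and 39.7% of all. The stretches of 3 windows before the first exon are shown, since E2F1 and E2F2 encode E2F factors themselves and MCM6 held the most matches of these, with the matched bases in capitals. All 3 genes lie on the minus strand, and the stretches are at chr20:33686405-33686635, chr1:23531234-23531483 and chr2:135876444-135876693.
E2F1: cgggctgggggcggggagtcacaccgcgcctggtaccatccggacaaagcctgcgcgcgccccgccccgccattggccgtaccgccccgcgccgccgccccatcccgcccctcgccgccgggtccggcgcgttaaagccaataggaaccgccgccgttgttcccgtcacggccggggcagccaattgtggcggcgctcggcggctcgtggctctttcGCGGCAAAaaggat
E2F2: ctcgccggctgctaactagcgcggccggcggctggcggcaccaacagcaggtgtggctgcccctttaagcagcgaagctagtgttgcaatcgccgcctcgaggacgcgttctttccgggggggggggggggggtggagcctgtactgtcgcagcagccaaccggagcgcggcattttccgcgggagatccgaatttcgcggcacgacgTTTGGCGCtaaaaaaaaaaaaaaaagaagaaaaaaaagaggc
MCM6: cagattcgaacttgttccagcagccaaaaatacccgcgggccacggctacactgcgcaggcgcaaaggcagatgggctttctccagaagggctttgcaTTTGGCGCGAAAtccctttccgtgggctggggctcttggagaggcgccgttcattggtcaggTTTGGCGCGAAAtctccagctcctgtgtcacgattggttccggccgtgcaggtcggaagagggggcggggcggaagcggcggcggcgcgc
In the MCM6 stretch 4 matches formed 2 blocks, each read on both strands. A match describes the letters of the window and is no evidence that a factor was bound.

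The targeted gene was examined first. ARHGEF2 stood at 13.0, 14.4 and 13.9 FPKM (fragments per kilobase of transcript, scaled to the library's mapped fragments) in shNC replicates 1 to 3. It stood at 4.25, 4.004 and 4.82 FPKM in shARHGEF2 replicates 1 to 3, or 31.6% of the control mean. It fell by 1.47 on the log2(FPKM + 1) scale (SE 0.11, adjusted p = 0.00244 in limma), so the hairpin labels held for their target. The cell line label was examined with 19 hepatocyte markers, of which 11 were listed in the table and 1, VTN, reached a mean of 1 FPKM (5.95 FPKM). AFP (0.0240 FPKM), APOA1 (0.0689 FPKM), SERPINA1 (0.00172 FPKM) and HNF4A (0.0657 FPKM) were near 0, which goes against a hepatocyte-like line, and the groups are called by their hairpins below. Summed over the list, the level was 6.02 to 6.24 FPKM in shNC and 6.72 to 7.70 FPKM in shARHGEF2. Of 15 leukocyte, endothelial, fibroblast and basal epithelial markers, 4 of the 14 listed reached 1 FPKM (CD68, LUM, COL1A1 and DCN), and their sum was 103 to 138 FPKM in shNC and 117 to 122 FPKM in shARHGEF2. The part of these markers in the results below was not tested.

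None of the 47 replication and G1/S genes passed the test between shARHGEF2 and shNC. Over all 12291 genes tested, 34 (0.277%) had an adjusted p under 0.05 in limma, and the lowest adjusted p among the 47 was 0.184, for FEN1. Before adjustment 7 of the 47 had a p under 0.05 (14.9%, against 13.7% of all genes tested), a share near the background and thus no result about these genes as a group. Of the 7, the levels of FEN1, E2F1, CDC6, TK1, CDK2 and CDT1 were higher in shARHGEF2 (12.8%, against 8.1% of all genes) and that of MCM4 was lower (2.13%, against 5.55%). With quantile normalization the split was 6 higher and 2 lower, with PRIM1 as the other lower gene (15.1% of all genes in either direction). With the replicate number as a block it was 8 higher and 0 lower (16.1% of all genes in either direction). Shares of all genes by direction were not taken in either of these fits, so both splits lack a background and are only a description. The 3 shNC and 3 shARHGEF2 values did not overlap for 10 genes (21.3%, against 20.5% of all genes tested), 7 higher (14.9%, against 11.3%) and 3 lower (6.38%, against 9.17%) in shARHGEF2. For a single gene an exact permutation test of 3 libraries against 3 cannot give a two-sided p below 0.1, and these 10 genes gave that value.

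The fitted differences were small. The log2 fold change was below 0 for 21 genes (44.7%, against 50.4% of all genes) and above 0 for 26, with a median of 0.01 on the log2(FPKM + 1) scale against -0.0016 for all genes tested. The quartiles were -0.10 and 0.14 (all genes -0.13 and 0.13), and the values ran from -0.29 (PRIM1) to 0.48 (CDC6). The 95% interval of the difference lay within a 2-fold change for all 47 genes (94.9% of all genes tested) and within a 1.5-fold change for 39 (83%, against 75.9%). The pseudocount of 1 narrows these intervals for genes of low level. With a pseudocount of 0.1 the interval of POLA2 (upper bound 1.10) passed a 2-fold change, and those of the other 46 did not. A gene that misses the threshold is not shown to be the same in both groups, and the intervals give the differences that remain possible.

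**Figure D1:**
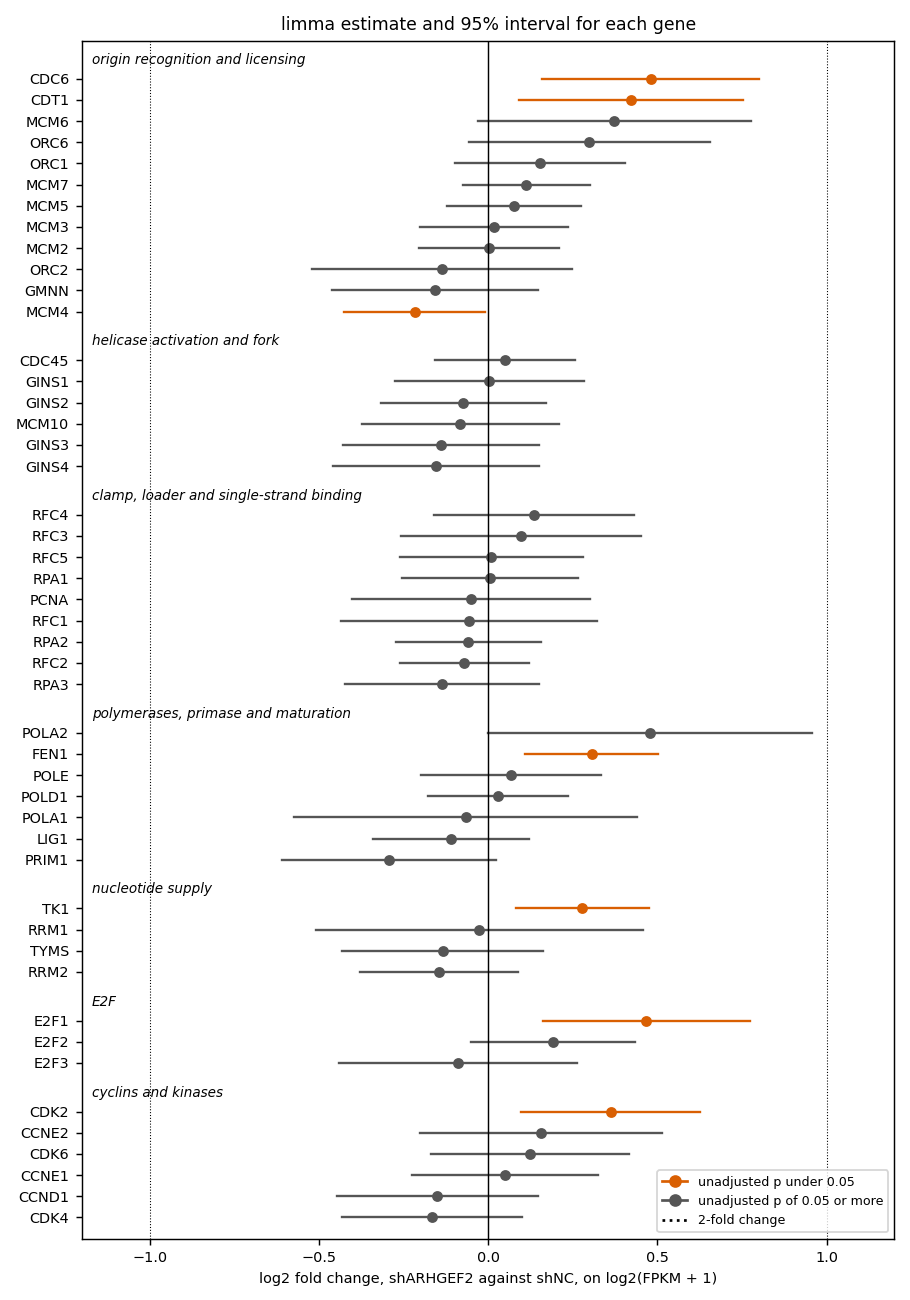
Fitted log2 fold change of the 47 genes (horizontal axis, shARHGEF2 against shNC on log2(FPKM + 1)) by role, with 95% intervals from limma, dotted lines at a 2-fold change, and orange for the 7 genes with an unadjusted p under 0.05. Every interval lies between the dotted lines, and CDC6 and PRIM1 mark the highest and the lowest estimate.

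**Figure D2:**
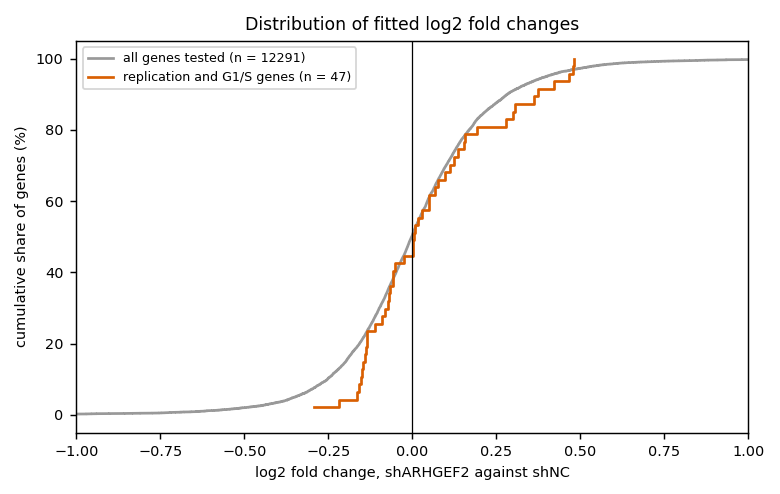
Cumulative share of genes (vertical axis, %) by fitted log2 fold change (horizontal axis, cut at -1 and 1) for the 47 replication and G1/S genes and for all 12291 genes tested. Both curves cross 0 near the middle, at 44.7% and 50.4%, and the 47 genes span -0.29 to 0.48.

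The 12 genes of origin recognition and licensing held the highest member of the whole set by mean level, MCM7 (148 FPKM), and CDT1 followed at 145 FPKM. In this group 9 log2 fold changes were above 0 and 3 below, with a median of 0.09 and none called. CDC6, the ATPase that joins the origin recognition complex to load the helicase, stood at 6.495, 9.54 and 8.07 FPKM in shNC and at 10.4, 12.1 and 11.95 FPKM in shARHGEF2. The lowest shARHGEF2 value exceeded the highest shNC value, with a log2 fold change of 0.48 (SE 0.14, adjusted p = 0.196 in limma). This estimate was the highest of the 47 genes by little (POLA2 0.477, CDC6 0.480), and with a pseudocount of 0.1 that of POLA2 was higher (0.55 against 0.53). CDT1, which brings the helicase to the origin, stood at 124, 99.0 and 150 FPKM in shNC and at 175, 168 and 152 FPKM in shARHGEF2. The groups were set apart by little, since shARHGEF2 replicate 3 lay just above shNC replicate 3 (log2 fold change 0.42, SE 0.15, adjusted p = 0.258 in limma). Without shNC replicate 2, its lowest control, the log2 fold change was 0.27. Its inhibitor GMNN had means of 12.2 ± 2.22 and 10.8 ± 0.736 FPKM (SD, n = 3) in shNC and shARHGEF2, with overlapping values. The ratio of GMNN to CDT1 was 0.0925, 0.149 and 0.0699 in shNC and 0.0585, 0.0691 and 0.0690 in shARHGEF2. All shARHGEF2 ratios lay below all shNC ratios, but the nearest pair (0.0691 and 0.0699) almost met, and this ratio was not tested.

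The 6 subunits of the MCM helicase form a ring in which each is present once, yet their mRNA levels differed widely. The mean over all libraries was 148 FPKM for MCM7, 67.4 for MCM2, 45.1 for MCM5, 42.4 for MCM3, 20.9 for MCM4 and 13.8 for MCM6. The GC content of their transcripts ran from 41.1% (MCM6) to 58.0% (MCM5), and its part in these levels was not tested. MCM7 stood at 142, 134 and 152 FPKM in shNC and at 157, 149 and 157 FPKM in shARHGEF2, and the groups overlapped (log2 fold change 0.11, adjusted p = 0.602 in limma). MCM4 stood at 21.8, 24.3 and 21.7 FPKM in shNC and at 18.9, 19.1 and 19.8 FPKM in shARHGEF2. All of its shARHGEF2 values lay below all of its shNC values (log2 fold change -0.22, SE 0.09, adjusted p = 0.349 in limma), and its unadjusted p was under 0.05 in 1 of the 6 fits that left out a library. MCM6 had an estimate of the other sign, 0.37 (SE 0.18, adjusted p = 0.402 in limma), with means of 11.9 ± 2.66 and 15.7 ± 2.86 FPKM and overlapping values, and it was 0.25 without shNC replicate 1. Summed over the 6 subunits, the level was 324, 323 and 345 FPKM in shNC and 343, 341 and 353 FPKM in shARHGEF2, with 2 of the 3 shARHGEF2 sums below the highest shNC sum.

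Of the origin recognition complex, ORC1 (8.56 FPKM), ORC6 (5.86 FPKM) and ORC2 (1.96 FPKM) had means below those of all helicase subunits, the lowest of which was MCM6 (13.8 FPKM). ORC2, the lowest of the licensing genes, stood at 1.71, 2.89 and 1.76 FPKM in shNC and at 1.47, 2.07 and 1.89 FPKM in shARHGEF2, with the highest value in the control group. The log2 fold changes of ORC1 and ORC6 were 0.15 and 0.30, and their groups overlapped. That of ORC6 was 0.18 without shNC replicate 1.

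The 6 genes of helicase activation at the fork had 2 log2 fold changes above 0 and 4 below, from -0.15 (GINS4) to 0.05 (CDC45), and none had an unadjusted p under 0.05. GINS2, a subunit of the GINS complex and the highest of these, stood at 15.7, 17.2 and 14.3 FPKM in shNC and at 13.9, 15.0 and 15.9 FPKM in shARHGEF2. MCM10, which helps to start DNA unwinding, was the lowest at 1.24, 1.48 and 1.48 FPKM in shNC and 0.979, 1.502 and 1.34 FPKM in shARHGEF2. Both genes overlapped between the groups. CDC45, which travels with the helicase, had means of 11.9 ± 0.195 and 12.3 ± 0.280 FPKM (SD, n = 3). The 4 GINS subunits, which assemble in equal numbers, had mean levels of 10.6 (GINS1), 15.3 (GINS2), 2.48 (GINS3) and 5.28 FPKM (GINS4). The part of GC content in these levels was not tested either.

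The 9 genes of the clamp, its loader and the single-strand binding protein RPA had 4 log2 fold changes above 0 and 5 below, from -0.14 (RPA3) to 0.14 (RFC4), and none had an unadjusted p under 0.05. PCNA, the sliding clamp, stood at 111, 130 and 98.9 FPKM in shNC and at 87.3, 126 and 117 FPKM in shARHGEF2. Its values spread widely in both groups and overlapped. RFC1, the large subunit of the clamp loader, was the lowest at 1.08, 1.79 and 1.56 FPKM in shNC and 0.940, 1.70 and 1.52 FPKM in shARHGEF2. RFC2, a small loader subunit, did not overlap between the groups, with means of 30.4 ± 0.970 and 28.9 ± 0.824 FPKM, but its difference was small (log2 fold change -0.07, adjusted p = 0.783 in limma). The other loader subunits RFC3, RFC4 and RFC5 had means of 6.69, 8.58 and 8.04 FPKM, and the RPA subunits RPA1, RPA2 and RPA3 had means of 21.7, 19.2 and 8.73 FPKM.

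Among the 7 genes of polymerases, primase and fragment maturation, 4 log2 fold changes were above 0 and 3 below. FEN1, the nuclease that trims the flaps of lagging-strand fragments, stood at 76.6, 82.8 and 75.7 FPKM in shNC and at 90.4, 99.6 and 101 FPKM in shARHGEF2. The groups did not overlap, and the log2 fold change of 0.31 (SE 0.09) had the smallest p of the 47 genes (unadjusted 0.00675, adjusted p = 0.184 in limma, 0.101 to 0.457 over the alternatives). FEN1 (GRCh38, chr11:61792637-61797244, plus strand) shares exon sequence with FADS2 on the same strand and overlaps TMEM258 on the other, and the log2 fold changes of these neighbours were 0.10 and -0.14. POLA1, the catalytic subunit of polymerase alpha, was the lowest at 1.73, 2.92 and 1.304 FPKM in shNC and 1.23, 2.35 and 1.88 FPKM in shARHGEF2, with overlapping groups. POLA2, the second subunit of polymerase alpha, stood at 4.496, 8.42 and 4.31 FPKM in shNC and at 8.38, 7.84 and 7.94 FPKM in shARHGEF2, where only shNC replicate 2 reached the level of the knockdown libraries (log2 fold change 0.48, SE 0.21, adjusted p = 0.366 in limma). Without that library the log2 fold change of POLA2 was 0.74, with an adjusted p of 0.109 in limma, the lowest over the alternatives, which ran to 0.667.

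PRIM1, the catalytic subunit of the primase that works with polymerase alpha, had the lowest log2 fold change of the 47 genes (-0.29, SE 0.14, adjusted p = 0.402 in limma). It stood at 7.56, 8.09 and 6.61 FPKM in shNC and at 4.81, 6.75 and 6.16 FPKM in shARHGEF2, where replicate 2 lay above the lowest control. Without shARHGEF2 replicate 1, its lowest value, the log2 fold change was -0.17, smaller in size than that of MCM4 in the same fit (-0.20). PRIM1 (GRCh38, chr12:56731596-56752373, minus strand) shares exon sequence with NACA, which had means of 16.4 ± 4.46 and 10.98 ± 1.47 FPKM and a difference of -0.51 on the log2(FPKM + 1) scale (adjusted p = 0.268 in limma). Reads in the shared sequence could be assigned to either gene, and this was not tested. POLD1, POLE and LIG1, which encode the catalytic subunits of polymerases delta and epsilon and the ligase of lagging-strand fragments, had log2 fold changes of 0.03, 0.07 and -0.11.

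The 4 genes of nucleotide supply had 1 log2 fold change above 0 and 3 below. TK1, thymidine kinase of the salvage pathway, stood at 137, 119 and 131 FPKM in shNC and at 161, 158 and 151 FPKM in shARHGEF2. Its groups did not overlap (log2 fold change 0.28, SE 0.09, adjusted p = 0.223 in limma). RRM2, the small subunit of ribonucleotide reductase, was the lowest at 12.8, 15.0 and 13.0 FPKM in shNC and 11.6, 12.4 and 12.4 FPKM in shARHGEF2. Its groups did not overlap either, in the other direction (log2 fold change -0.15, SE 0.10, adjusted p = 0.586 in limma), and the estimate was -0.076 without shNC replicate 2. The large subunit RRM1 had means of 71.7 ± 15.5 and 70.7 ± 16.5 FPKM, and the ratio of RRM2 to RRM1 was 0.193 ± 0.0224 in shNC and 0.178 ± 0.0385 in shARHGEF2 (SD, n = 3). TYMS, thymidylate synthase, which makes thymidine nucleotides by the other route, had means of 58.8 ± 3.31 and 54.0 ± 10.2 FPKM, and its groups overlapped.

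Of the 3 E2F genes, E2F1 was the highest at 55.3, 41.5 and 60.0 FPKM in shNC and 75.7, 72.0 and 68.1 FPKM in shARHGEF2. All shARHGEF2 values lay above all shNC values, with a log2 fold change of 0.47 (SE 0.13, adjusted p = 0.190 in limma). E2F2 stood at 6.51, 6.44 and 7.00 FPKM in shNC and at 7.99, 7.07 and 8.18 FPKM in shARHGEF2, again without overlap, though the nearest values almost met (log2 fold change 0.19, SE 0.11, adjusted p = 0.471 in limma). E2F3 was the lowest at 3.42, 5.26 and 4.09 FPKM in shNC and 3.39, 4.35 and 3.99 FPKM in shARHGEF2, with overlapping groups. The 20 genes with an E2F match in a promoter window, among them E2F1, E2F2 and E2F3, had a median log2 fold change of 0.01 with 12 above 0, and the 19 genes with a window but no match had a median of 0.01 with 11 above 0. Of the genes with an unadjusted p under 0.05, CDC6, CDT1 and E2F1 had a match, FEN1 and TK1 had none, and CDK2 and MCM4 had no window to search.

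Among the 6 cyclins and kinases, 4 log2 fold changes were above 0 and 2 below. CDK2, the kinase of cyclin E, stood at 20.4, 19.7 and 21.7 FPKM in shNC and at 23.0, 27.2 and 30.5 FPKM in shARHGEF2. Its groups did not overlap, and the shARHGEF2 values spread more widely (3.75 against 0.999 FPKM, SD, n = 3), with a log2 fold change of 0.36 (SE 0.12, adjusted p = 0.232 in limma). CDK2 (GRCh38, chr12:55966769-55972784, plus strand) overlaps PMEL on the other strand, which had means of 0.673 and 1.01 FPKM. CDK4, a kinase of cyclin D and the highest of this role, stood at 72.9, 68.4 and 64.5 FPKM in shNC and at 51.5, 67.7 and 65.0 FPKM in shARHGEF2, where replicate 1 was low. CDK6, the other kinase of cyclin D, was the lowest of all 47 genes at 0.732, 1.18 and 0.951 FPKM in shNC and 0.993, 1.33 and 1.05 FPKM in shARHGEF2. The ratio of CDK6 to CDK4 was 0.0140 ± 0.00368 in shNC and 0.0184 ± 0.00188 in shARHGEF2. Cyclin D1 (CCND1) had means of 42.2 ± 8.07 and 37.5 ± 1.10 FPKM, cyclin E1 (CCNE1) 9.46 ± 0.644 and 9.87 ± 1.37 FPKM, and cyclin E2 (CCNE2) 0.933 ± 0.243 and 1.17 ± 0.372 FPKM, each with overlapping groups. The ratio of CCNE1 to CCND1 was 0.228 ± 0.0259 in shNC and 0.264 ± 0.0450 in shARHGEF2.

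**Figure D3:**
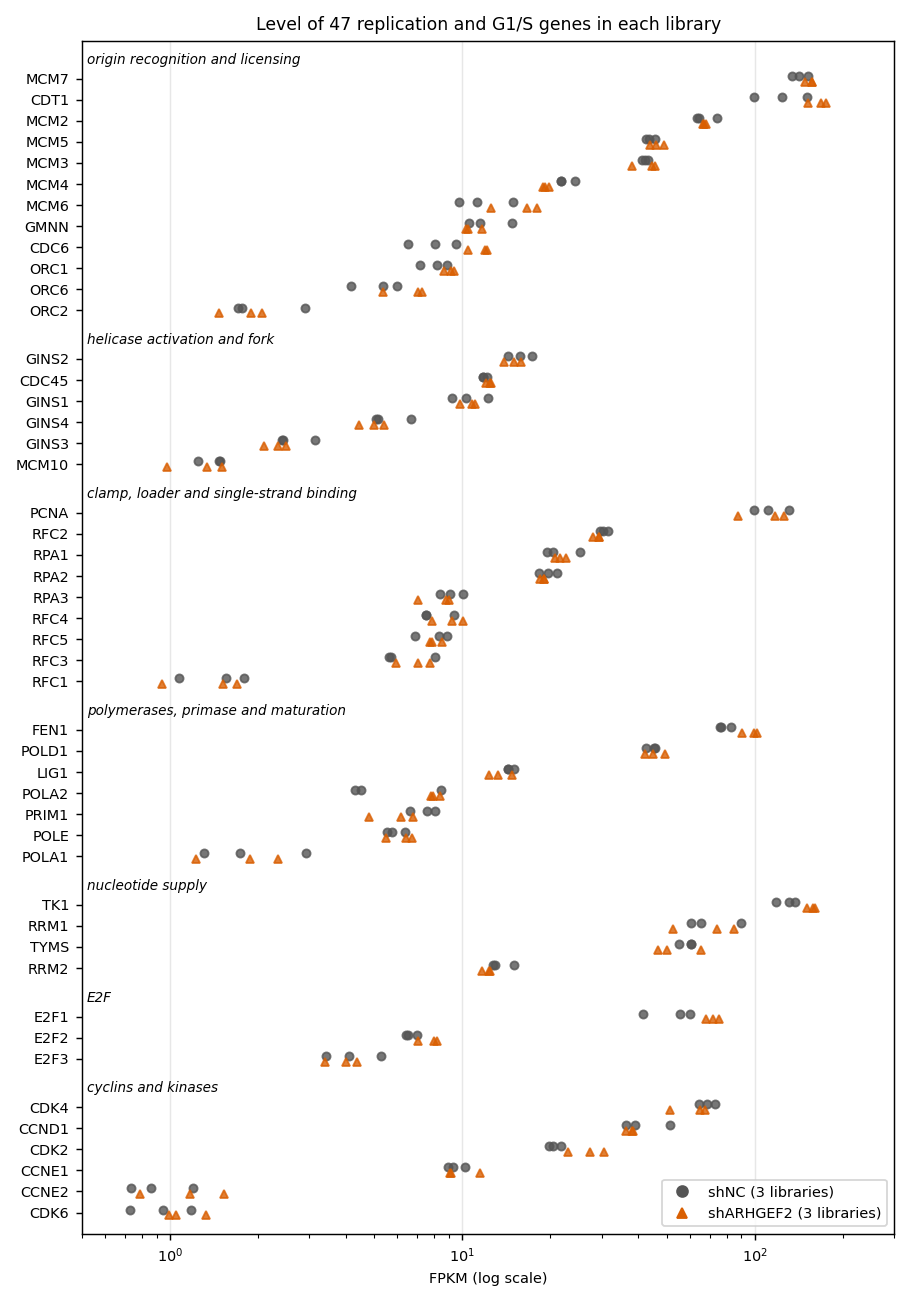
FPKM on a log scale (horizontal axis) of the 47 genes by role, with grey circles for the 3 shNC and orange triangles for the 3 shARHGEF2 libraries. Levels run from about 1 FPKM (CDK6, CCNE2) to 148 FPKM (MCM7), and the symbols of both groups overlap for 37 genes.

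**Figure D4:**
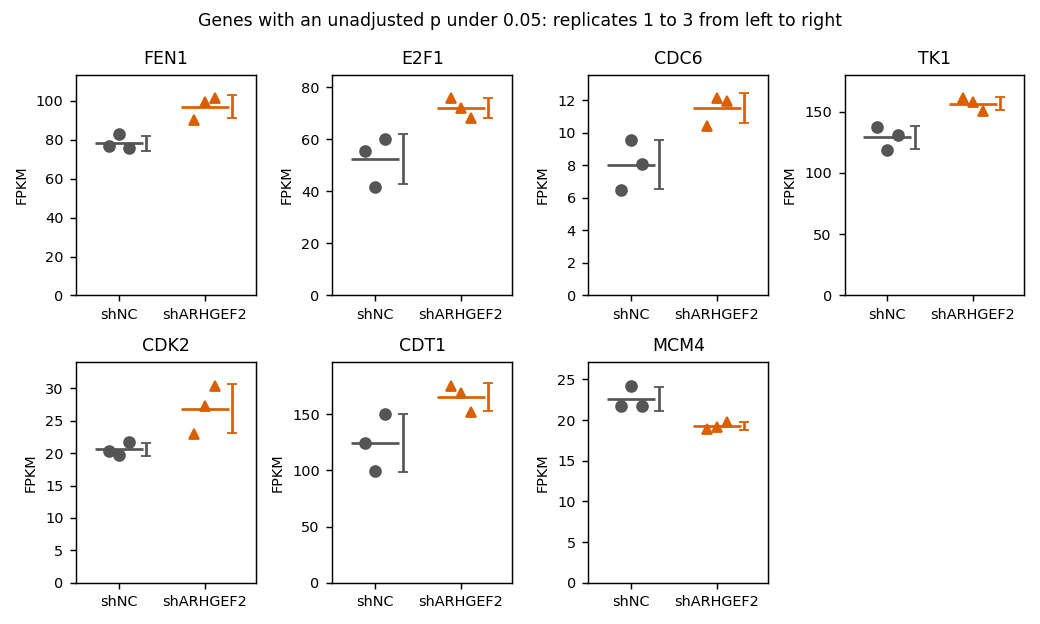
FPKM (vertical axes from 0) of the 7 genes with an unadjusted p under 0.05, with a point for each of the 3 libraries of a group, a line at the mean and a bar of 1 SD on either side. The groups do not overlap in any of the 7 panels, with shARHGEF2 higher in 6 and lower for MCM4.

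Libraries of the same group also differed from each other across the 47 genes. In shNC, replicate 2 gave the highest value of its group for 32 of the 47 genes and replicate 1 the lowest for 24. In shARHGEF2, replicate 1 gave the lowest value for 32 and replicate 2 the highest for 23. These deviations moved with the GC content of the transcripts, which ran from 36.9% (CCNE2) to 65.3% (CDT1). Across the 47 genes, Spearman's rho between GC content and the deviation from the mean of all libraries was 0.20, -0.62 and 0.43 in shNC replicates 1 to 3 and 0.65, -0.44 and 0.02 in shARHGEF2 replicates 1 to 3. Over all genes with a GC value the rho was 0.20, -0.47 and 0.14 in shNC and 0.57, -0.29 and -0.03 in shARHGEF2. In both groups the rho was positive for replicate 1 and negative for replicate 2. Genes share the library in these correlations, which are descriptions and were not tested.

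With this GC trend removed from each library, again none of the 47 genes was called (0.392% of all genes), and the lowest adjusted p was 0.0738 (CDC6, limma). The log2 fold changes were then 0.50 for CDC6, 0.41 for E2F1, 0.37 for CDK2, 0.35 for CDT1, 0.30 for FEN1, 0.23 for TK1 and -0.20 for MCM4. An unadjusted p under 0.05 was then given by 11 of the 47 genes, against 18.7% of all genes. They were these 7 and MCM6, ORC6, POLA2 and PRIM1, with log2 fold changes of 0.39, 0.32, 0.49 and -0.27. Without shNC replicate 2 the unadjusted p was under 0.05 for 9 of the 47 genes (11.3% of all genes), and without shARHGEF2 replicate 1 for 7 (12.1% of all genes). In both fits all of these genes were higher in shARHGEF2, and the median log2 fold change over all genes tested was 0.03. The shares of all genes by direction were not taken for these fits, so the shared direction is no result about the 47 genes. CDC6, FEN1, E2F1 and TK1 had an unadjusted p under 0.05 in all 6 fits that left out a library, as did 5.61% of all genes tested and 41.1% of the 1678 genes with such a p in the full fit. The 6 fits share most of their libraries and the full fit, so this count is a description.

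**Figure D5:**
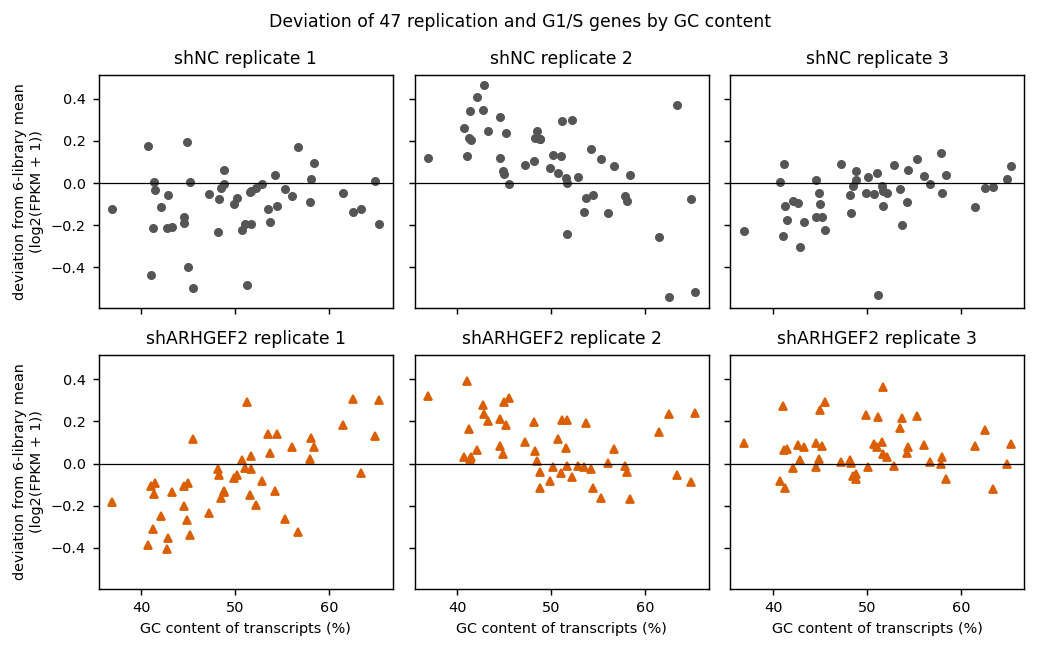
Deviation of each of the 47 genes from its mean over the 6 libraries (vertical axis, log2(FPKM + 1)) by GC content of its transcripts (horizontal axis, %), in a panel for each library. The points slope down in shNC replicate 2 (rho -0.62) and up in shARHGEF2 replicate 1 (rho 0.65), so the slope is not shared by the libraries of a group.

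Another 65 genes of the same pathway, such as further polymerase subunits, histone chaperones, pocket proteins and kinase inhibitors, were all listed, and 61 of them were tested. None was called, and 7 (11.5%, against 13.7% of all genes tested) had an unadjusted p under 0.05, 5 higher and 2 lower in shARHGEF2. ASF1B, a histone chaperone of replicating chromatin, had the smallest p (84.1 ± 4.97 and 109 ± 8.49 FPKM, log2 fold change 0.37, adjusted p = 0.142 in limma). CDKN2D, an inhibitor of CDK4 and CDK6, stood at 10.3, 7.89 and 16.1 FPKM in shNC and at 20.3, 23.8 and 20.6 FPKM in shARHGEF2, without overlap (log2 fold change 0.91, SE 0.22, adjusted p = 0.148 in limma). It passed the test only without shNC replicate 3, its highest control (log2 fold change 1.17, adjusted p = 0.0231 in limma), and its adjusted p ran up to 0.461 over the other alternatives. SAMHD1, which degrades the nucleotides that ribonucleotide reductase supplies, had means of 1.35 ± 0.422 and 0.642 ± 0.144 FPKM (log2 fold change -0.51, adjusted p = 0.216 in limma). Its groups did not overlap (lowest shNC value 0.867 FPKM, highest shARHGEF2 value 0.750 FPKM). At this low level the pseudocount of 1 understates the change, and the log2 fold change ran from -0.94 to -0.43 over the alternatives.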

How the data were processed

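RNA was sequenced from 3 shNC and 3 shARHGEF2 libraries of poly(A) RNA with strand marking and molecular identifiers, per the labels. The deposited table holds FPKM values per gene and library, which the authors scaled by transcript length and mapped fragments. It also holds the authors' own ratio of means (fold change), its log2, p-value and adjusted p-value, which the authors computed from the same libraries and which were not used here. The submitters' processing notes name cutadapt 1.9, HISAT2 2.0.4, UMI-tools, StringTie 1.3.4d, DESeq2, edgeR and the build hg19, and the study's methods name no test for the RNA sequencing. Positions and GC content came from GENCODE 29 (GRCh38), where 94.7% of the listed transcripts were found, and promoters from RefSeq (GRCh38.p14). No coordinates were converted between builds.

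FPKM are not counts. At the spacing that fitted the low values best, 39.0 to 40.6% of them came within 0.1 of a whole number of reads. The rest did not, so whole reads were not recovered for each value and the depth was not established. No count test or counting interval was used. Values of low genes rest on few reads.

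The 12291 genes whose mean reached 0.5 FPKM were fitted with limma 3.58.1 in R 4.3.3 (statmod 1.5.0) on log2(FPKM + 1), with eBayes using trend and robust variances and no block. P-values were adjusted over all genes tested by the Benjamini-Hochberg method, and an adjusted p under 0.05 made a call. A fold change on this scale understates the change of low genes. The script was tested on simulated data. Single genes were compared by two-sided exact permutation tests. Other steps used Python 3.11.15 with SciPy 1.17.1, pandas 2.3.3, numpy 2.4.6 and matplotlib 3.10.9.

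The genes, their roles and the list of 65 further genes were chosen with earlier results of these data known. Values in every library were given for genes with an unadjusted p under 0.05 and for the highest and lowest gene of each role. POLA2, PRIM1 and E2F2 were given so as well, chosen after their values were seen, and MCM6, RFC2 and the overlapping neighbours were named for the same reason. Of the further genes, the 3 with the smallest p were named. The alternatives were another pseudocount, other filters, other scalings, another variance model, a replicate block and each library left out in turn. Subtracting each library's loess trend on GC content (span 0.3), with and without the block, was an alternative chosen after seeing the data.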

Additional observations from a re-analysis of the deposited data

How the results depend on the processing

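None of the 47 genes was called in any of the 15 alternatives, and of 705 log2 fold changes under them 665 kept their sign. The other 40 belonged to 14 genes, whose estimates were at most 0.14 in size. Labels give both groups the same replicate numbers. Residual correlations of same-numbered libraries were 0.18 and 0.16 for replicates 1 and 2, above those of all other pairs, and -0.10 for replicate 3. As shNC replicate 3 did not correlate best with its own number, the numbers were not taken as pairs in the main fit, and the block was an alternative. With the replicate block 0 genes were called over the whole table, 1976 had an unadjusted p under 0.05, the 47 genes held 8 higher and 0 lower, and ARHGEF2 kept -1.47 with an adjusted p of 0.0716. With no filter ARHGEF2 (-1.47) had an adjusted p of 0.0701 and 1 gene was called, and with the GC trend removed and the block it stood at -1.49 (adjusted p = 0.0818 in limma) with 0 genes called. The whole table gave 54 calls at 1 FPKM in 3 or more libraries, 19 with quantile normalization, 7 with median-of-ratios factors, 7 without trend or robust variances, and 6 to 102 with a library left out (102 without shNC replicate 3, 6 to 15 otherwise). The 1 lower gene among the 47 with an unadjusted p under 0.05 became 2 with quantile normalization, median-of-ratios factors, the GC trend removed, and the GC trend removed with the block, 0 without trend or robust variances and with the block, and 0 to 2 with a library left out. In either direction 6 to 11 of the 47 genes had an unadjusted p under 0.05 over the alternatives. The share of all genes ran from 9.59 to 18.7%, apart from 7.69% with no filter, where all 27605 genes were fitted and many were near 0 FPKM. More of the 47 genes with such a p were higher than lower in each alternative. All genes tested leaned the same way in the main fit (8.1% higher, 5.55% lower). Shares of all genes by direction were not taken for the alternatives, which use the same libraries, so this is a description and no result about these genes. Of the 65 further genes 0 to 1 were called with a library left out (CDKN2D, without shNC replicate 3). Signs turned with quantile normalization for MCM2 (-0.0251), MCM3 (-0.0120), GINS1 (-0.0174), RFC5 (-0.0146) and RPA1 (-0.0282), with median-of-ratios factors for MCM2 (-0.0051), GINS1 (-0.0044) and RPA1 (-0.0028), and with the GC trend removed, block or not, for MCM2 (-0.0286) and POLD1 (-0.0387). With a library left out the estimates ran from -0.0395 to 0.0768 for MCM2, -0.0300 to 0.0972 for MCM3, -0.154 to 0.0148 for MCM10, -0.227 to 0.0334 for ORC2, -0.0831 to 0.105 for GINS1, -0.155 to 0.106 for PCNA, -0.178 to 0.0853 for RFC1, -0.0851 to 0.0762 for RFC5, -0.0651 to 0.113 for RPA1, -0.236 to 0.149 for POLA1, -0.0294 to 0.0797 for POLD1, -0.170 to 0.169 for RRM1, -0.206 to 0.0449 for E2F3 and -0.0513 to 0.105 for CCNE1. The cause of these changes was not tested.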
